A study of Mus musculus with 96 samples.

Results

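A group of 10 genes of the astrocyte, the star-shaped support cell of the brain, was followed through mouse cortex, liver and skeletal muscle under ad libitum feeding (AL) and intermittent fasting (IF). They are Etnppl, Aqp4, Gfap, Aldh1l1, Slc1a2, Slc1a3, Gja1, Gjb6, S100b and Glul, which make 10 of the 56748 genes of the deposited count table, each with 1 row. The genes were chosen by name: 9 are widely used astrocyte genes, and Etnppl was placed beside them, chosen by measured values of these data. Which of its values were used is not recorded, so all cortex values of the 10 genes, their calls and correlations among them, and all values of Etnppl in liver and muscle are given as a description, with no p, and support nothing further. The other 9 genes and the lists set beside them were also chosen with earlier results of these data known. Adjusted p printed for list genes, and for the 9 in liver and muscle, therefore describe these data and are no independent support.

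RNA was sequenced from 3 tissues of mice, 8 per sex and diet. Male C57BL/6 mice (1 to 16) began the diets at 6 weeks of age and ate chow freely (AL, 1 to 8) or were fasted 16 h a day (IF, 9 to 16) for 4 months. Female mice (25 to 32 under AL, 33 to 40 under IF) carry the same diet labels, but neither their strain, their age nor their time on the diets is given in the sources used here. The 3 tissues of a mouse share its number. Sex and set of mice coincide, so sex, cohort and handling cannot be told apart. By the study's methods the male IF mice were sampled at the end of a fast, so months on the diet and the last fast cannot be told apart either. The same methods place the feeding hours of male IF mice in the light phase, while AL mice had food at all hours. Time of feeding and fasting therefore cannot be told apart.

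Astrocytes take up the glutamate that neurons release and turn it into glutamine, pass ions and metabolites to each other through gap junctions, and line blood vessels with endfeet that hold water channels. Etnppl encodes ethanolamine-phosphate phospho-lyase, which breaks down phosphoethanolamine, a building block of membrane lipids, and is known from astrocytes and from liver. Several of the other genes also work outside the brain, among them Glul and Slc1a2 in the hepatocytes around the central vein and Aqp4 in fast muscle fibres.

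The 95 libraries used held 26097314 to 49838004 counts (median 36132954), and cortex libraries 31231970 to 40235336. Levels are given in CPM, a gene's count scaled to a library total of 1000000 counts. The cortex library labelled AL mouse 1 was left out: it had 213 CPM of Xist, the RNA of the inactive X chromosome, and no count of the Y-linked genes Ddx3y, Kdm5d, Eif2s3y and Uty. In the other 15 male cortex libraries Xist was at most 0.229 CPM and Ddx3y lay between 25.1 and 37.3 CPM, whereas in the 16 female ones Xist lay between 185 and 337 CPM. That library therefore went against its label of sex, and its nearest library in gene counts was IF female mouse 40. The male liver and muscle libraries all had Ddx3y, at 31.5 CPM or more.

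Tissue labels were checked against marker lists. In cortex the 9 neuron markers summed to 6071 to 8478 CPM, in liver 6 hepatocyte markers to 47284 CPM or more, and in muscle 6 fibre markers to 115864 CPM or more. In some cortex libraries 6 choroid plexus markers, led by Ttr, were also high. Their sum was over 100 CPM in AL mice 2 and 4 and IF mice 11 and 14 of the males, and in AL mouse 27 and IF mice 34 and 36 of the females, with the highest sum, 4384 CPM, in IF mouse 36. The sum of 100 CPM was set, and fits without these libraries were added, after the data were seen.

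Among the 10 genes, levels in the cortex of AL males are compared per kilobase of the deposited gene length. Glul, glutamine synthetase, was highest at 331 ± 38 CPM per kb (SD, n = 7), followed by Slc1a2, the main glutamate transporter, at 115 ± 11.4, and S100b, a calcium-binding protein, at 91.7 ± 9.14. Slc1a3, the second glutamate transporter, at 34 ± 2.75 and the intermediate filament gene Gfap at 33.1 ± 8.58 did not differ beyond their spread. Gjb6, connexin 30, had 17.5 ± 3.48 CPM per kb, Aldh1l1, an enzyme of folate metabolism, 12.7 ± 1.70, and Gja1, connexin 43, 11.4 ± 1.20, the last pair again within their spread. Aqp4, the water channel, had 8.72 ± 1.18, and Etnppl was lowest at 1.76 ± 0.330. AL females gave the same order except that Gfap, at 43.6 ± 5.49, lay above Slc1a3, at 30.9 ± 3.49. The deposited lengths were taken as given.

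Outside cortex the 10 genes parted. In AL males Etnppl was 4.48 times higher in liver (mean 64.9 CPM) than in cortex (14.5 CPM), and Aldh1l1 13 times higher (748 against 57.6 CPM). In AL females the same ratios were 2.36 and 11.7. Glul was 1.91 times and Slc1a2 15.3 times higher in cortex than in liver in AL males, and 1.64 and 9.26 times in AL females. Aqp4 was 5.08 times higher in cortex than in muscle in AL males and 2.29 times in AL females. Gfap, Gjb6 and S100b stayed at or under 3.92 CPM in every liver and muscle library used. No test was made of these levels, since astrocyte genes are defined by their level in brain.

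All 10 are protein-coding genes on GRCm39, and Etnppl (ENSMUSG00000019232) lies at chr3:130411097-130431170 on the + strand. Of the 10, 9 overlap at least 1 other annotated gene, S100b the longer gene Dip2a on the opposite strand and Etnppl the unnamed gene ENSMUSG00000130343, also on the opposite strand. The study's methods name both a kit that keeps the strand and one that does not, and describe steps of a preparation that keeps it. Whether all of these libraries were made that way is not stated. Whether the counting used the strand is not given in the sources used here, so reads of such pairs cannot be told apart here.

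In male cortex Etnppl was higher under IF. Its level ran from 10.7 to 18.7 CPM (median 15.1) in the 7 AL libraries and from 27.9 to 46.2 CPM (median 35) in the 8 IF libraries. Every IF library lay above every AL library. The share of all genes whose groups lay apart in this way was not computed for any comparison, so nothing is read from it. The log2 fold change by edgeR was 1.29 ± 0.11 (SE), a ratio of 2.45. Ordered from the largest rise to the largest fall, it stood at place 48 of the 18462 genes tested, and 28 of the 699 genes called higher had a larger log2 fold change. In bulk tissue, more or fewer cells of a type and more or less RNA per cell cannot be told apart.

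**Figure D1:**
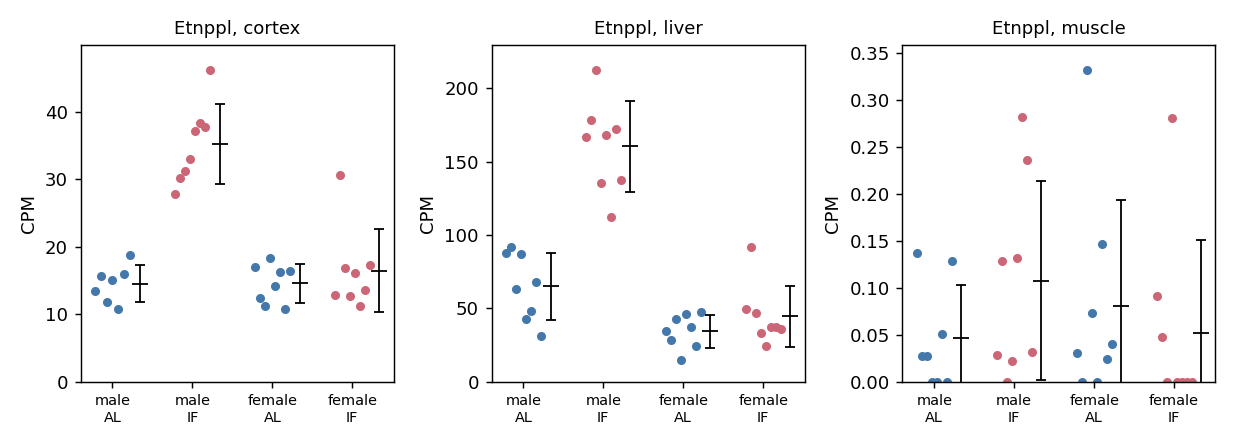
Etnppl in CPM (vertical axis, from 0) in each library of cortex, liver and muscle, by sex and diet, with AL in blue and IF in red; bars give the mean and SD of each group and are drawn down to 0 at most. In males the IF libraries lie above all AL libraries in cortex (27.9 to 46.2 against 10.7 to 18.7 CPM) and in liver (112 to 213 against 30.9 to 92.1 CPM), and in muscle no library passes 0.332 CPM.

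With the library labelled AL mouse 1 kept, at 16.8 CPM of Etnppl, the log2 fold change was 1.26 ± 0.11. Without the 4 male libraries high in choroid plexus markers it was 1.23 ± 0.14, where 76 genes were called in all, against 1332 with them. Aqp4 was also called there (-0.50 ± 0.10), and Gjb6 was not (0.30 ± 0.13). Of the 10 genes, 3 were called in male cortex (Etnppl and Gjb6 higher, Aqp4 lower) at an adjusted p under 0.05 by edgeR, beside 7.21% of all genes tested. By DESeq2 4 were called, with Glul added, beside 2187 of all 18253 genes. Nothing is read from these counts, since the choice of genes may have used this contrast.

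Aqp4, the water channel of the endfeet, was lower in male cortex under IF. It ran from 42.3 to 61.9 CPM (median 55.1) under AL and from 33.5 to 47.2 CPM (median 37.4) under IF. The groups overlapped only through IF mouse 12, the highest of its group at 47.2 CPM. The log2 fold change was -0.51 ± 0.09, and -0.46 ± 0.09 with the library labelled AL mouse 1, whose Aqp4 of 38.8 CPM was below all other AL libraries.

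Other genes of the endfoot encode proteins that anchor Aqp4 and join the cell to the vessel wall. Of 10 such genes, 1 was called in male cortex, and their median log2 fold change was 0.00, beside 7.21% called and a median of -0.00 for all genes tested. The one called, Agrn, encodes agrin of the basement membrane and rose from a median of 129 CPM under AL to 172 CPM under IF (log2 fold change 0.35 ± 0.10, adjusted p = 0.0425 by edgeR).

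The connexins, which build the gap junctions between astrocytes, differed from each other. Gjb6 ran from 32.9 to 63.2 CPM (median 44.6) under AL and from 47.4 to 71.8 CPM (median 59.9) under IF in males, a log2 fold change of 0.38 ± 0.11. Its groups overlapped: 4 of the 7 AL libraries lay below all IF libraries, and 2 of the 8 IF libraries above all AL libraries. With the library labelled AL mouse 1 kept, Gjb6 was not called (0.38 ± 0.10). Gja1 ran from 101 to 140 CPM under AL and from 94.6 to 122 CPM under IF, with a log2 fold change of -0.11 ± 0.07. Of 6 other connexin genes of glia and vessels, none was called by edgeR in male cortex, with 1 at an unadjusted p under 0.05 and 1 called by DESeq2. The median of these 6 was 0.04, beside 7.21% called by edgeR and a median of -0.00 for all genes.

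The glutamate transporters and glutamine synthetase were not called by edgeR in male cortex, while DESeq2 called Glul. Slc1a2 had a median of 1505 CPM under AL and 1459 CPM under IF (log2 fold change -0.07 ± 0.07). Slc1a3 had a median of 291 CPM under AL and 260 CPM under IF (-0.17 ± 0.06), and Glul 1281 and 1495 CPM (0.25 ± 0.08). All 3 overlapped between the diets, though 6 of 8 IF libraries lay above all AL libraries for Glul. Of 15 other genes of glutamate and glutamine handling, 1 was called: Slc7a11, the cystine-glutamate exchanger, fell from a median of 25.2 to 18.2 CPM (log2 fold change -0.40 ± 0.11, adjusted p = 0.0293 by edgeR). The median of the 15 was -0.09, beside 7.21% called and a median of -0.00 for all genes.

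The calls of Gjb6, Glul, Aldh1l1 and Slc1a3 in male cortex turned on single libraries. Gjb6 was no longer called without any 1 of AL mice 2, 4 and 5 or IF mice 11, 13, 14, 15 and 16, where its log2 fold change lay between 0.35 and 0.40. Glul was called without any 1 of AL mice 7 and 8 or IF mice 9 and 12 (0.27 to 0.28), Aldh1l1 without AL mouse 7 (0.29) or IF mouse 9 (0.30), and Slc1a3 without AL mouse 6 (-0.20). Etnppl and Aqp4 were called in all 15 such fits, with log2 fold changes of 1.23 to 1.36 and -0.57 to -0.48.

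Gfap, the filament gene that rises in reactive astrocytes, ran from 99.1 to 200 CPM under AL and from 107 to 163 CPM under IF in male cortex (log2 fold change -0.11 ± 0.13). S100b ran from 119 to 157 CPM and from 124 to 158 CPM (0.02 ± 0.07). Aldh1l1 ran from 48.5 to 67.5 CPM and from 54.0 to 83.0 CPM (0.26 ± 0.09). None of these 3 was called by edgeR, and their groups overlapped.

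Of 13 further genes of reactive astrocytes, 11 were tested in male cortex and 2 were called, both lower. Cd44, a receptor for hyaluronan, fell from a median of 2.17 CPM under AL to 1.37 CPM under IF (log2 fold change -0.95 ± 0.22, adjusted p = 0.0165 by edgeR). Hspb1, a small heat shock protein, fell from 28.1 to 17.4 CPM (-0.61 ± 0.16, adjusted p = 0.031). The median over the 11 was -0.09, beside -0.00 for all genes, of which 7.21% were called. Of 9 other S100 genes, 8 were tested and none was called by edgeR or DESeq2, with 2 at an unadjusted p under 0.05.

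Of 34 other astrocyte genes, all tested, 3 were called in male cortex and the median log2 fold change was -0.00, beside 7.21% called and a median of -0.00 for all genes. Sdc4, a heparan sulfate proteoglycan, rose from a median of 50.1 to 71.2 CPM (log2 fold change 0.46 ± 0.09, adjusted p = 0.00607 by edgeR). Sox9, a transcription factor of the astrocyte lineage, fell from 21.5 to 15.1 CPM (-0.54 ± 0.12, adjusted p = 0.0124). Lcat, which esterifies cholesterol in lipoproteins, fell from 28.7 to 21.2 CPM (-0.36 ± 0.10, adjusted p = 0.0375).

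The other enzymes around phosphoethanolamine, the substrate of Etnppl, included its kinases Etnk1 and Etnk2, Pcyt2, which makes CDP-ethanolamine, and the related phospho-lyase Phykpl. Of the 13, 12 were tested in male cortex and none was called by edgeR or DESeq2, with 3 at an unadjusted p under 0.05. Their median log2 fold change was 0.01, beside 7.21% called by edgeR and a median of -0.00 for all genes.

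**Figure D2:**
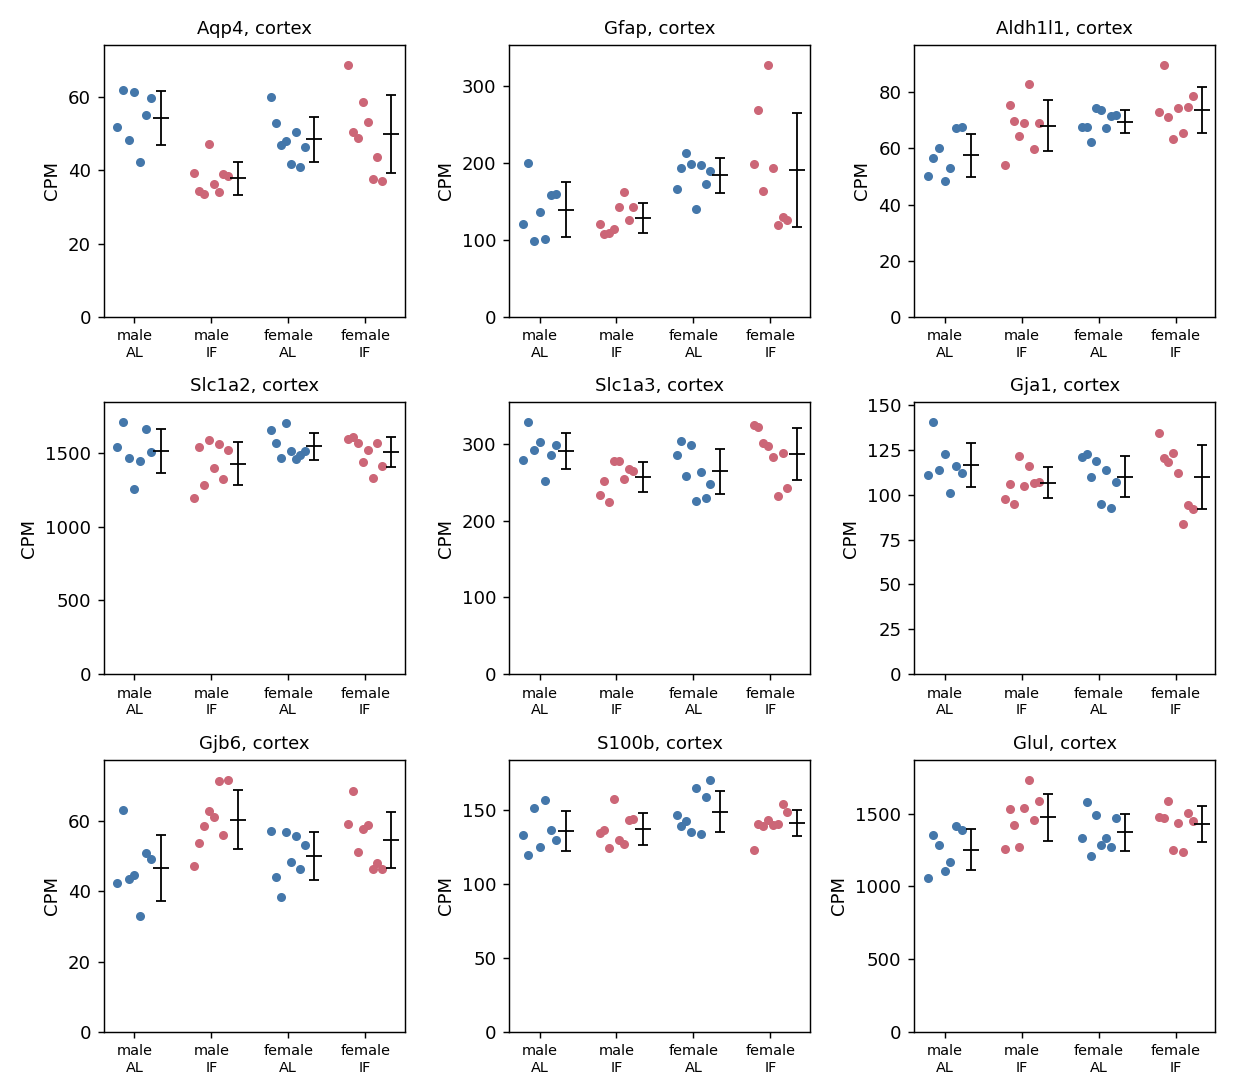
The other 9 genes in cortex, in CPM (vertical axes, from 0), 1 point per library by sex and diet, AL in blue and IF in red, with the mean and SD of each group. Male Aqp4 is lower under IF (33.5 to 47.2 against 42.3 to 61.9 CPM), Gjb6 is higher with overlap, and in females all 9 overlap between the diets.

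Markers of other cell types were read in the same male cortex libraries. Of 8 oligodendrocyte markers 5 rose, with a median log2 fold change of 0.42 over the list, beside 7.21% called and a median of -0.00 for all genes, and none was at 0. Their summed level ran from 4744 to 7311 CPM (median 5771) under AL and from 6428 to 10480 CPM (median 8485) under IF. Mobp, a myelin protein gene, rose by 0.66 ± 0.13 on the log2 scale (adjusted p = 0.00953 by edgeR), Mbp, the most abundant of the list, by 0.59 ± 0.12 (adjusted p = 0.0091), Mog by 0.53 ± 0.08 (adjusted p = 0.00194) and Cnp by 0.46 ± 0.08 (adjusted p = 0.00318).

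Of 7 endothelial markers, Robo4 rose (log2 fold change 0.54 ± 0.10) and Cldn5, of the tight junctions between endothelial cells, fell (-0.43 ± 0.11, adjusted p = 0.0252 by edgeR). Robo4 is given with no p, since its choice may have used results of these data. DESeq2 called 4 of the 7. The median of the list was -0.11, beside 7.21% called by edgeR and a median of -0.00 for all genes. The summed endothelial level ran from 199 to 241 CPM under AL and from 175 to 214 CPM under IF. Of 9 neuron and 8 microglia markers, none was called by edgeR or DESeq2, with 1 of each at an unadjusted p under 0.05 and medians of -0.02 and -0.10. The part of these cell types in the values of the 10 genes was not tested.

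In female cortex the AL and IF libraries overlapped for each of the 10 genes. Etnppl ran from 10.7 to 18.4 CPM (median 15.3) under AL and from 11.3 to 30.7 CPM (median 14.9) under IF. Of the 8 IF libraries 1, that of mouse 34 at 30.7 CPM, lay above all AL libraries, and the next highest was at 17.3 CPM. The log2 fold change was 0.17 ± 0.18, and -0.02 without mouse 34.

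Aqp4 had a log2 fold change of 0.04 ± 0.10 and Gjb6 of 0.12 ± 0.09 in female cortex. Of the 10 genes 0 were called there by edgeR or DESeq2 and 0 had an unadjusted p under 0.05, beside 0.0109% called of all genes tested (2 of 18403 by edgeR, 61 by DESeq2). Without AL mouse 26 the genes called numbered 254, and none of the 10 was among them. The 8 oligodendrocyte markers had a median log2 fold change of -0.18 in females and none was called by edgeR or DESeq2, with 5 at an unadjusted p under 0.05. Without the 3 female libraries high in choroid plexus markers Etnppl stood at -0.04 ± 0.13.

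**Figure D3:**
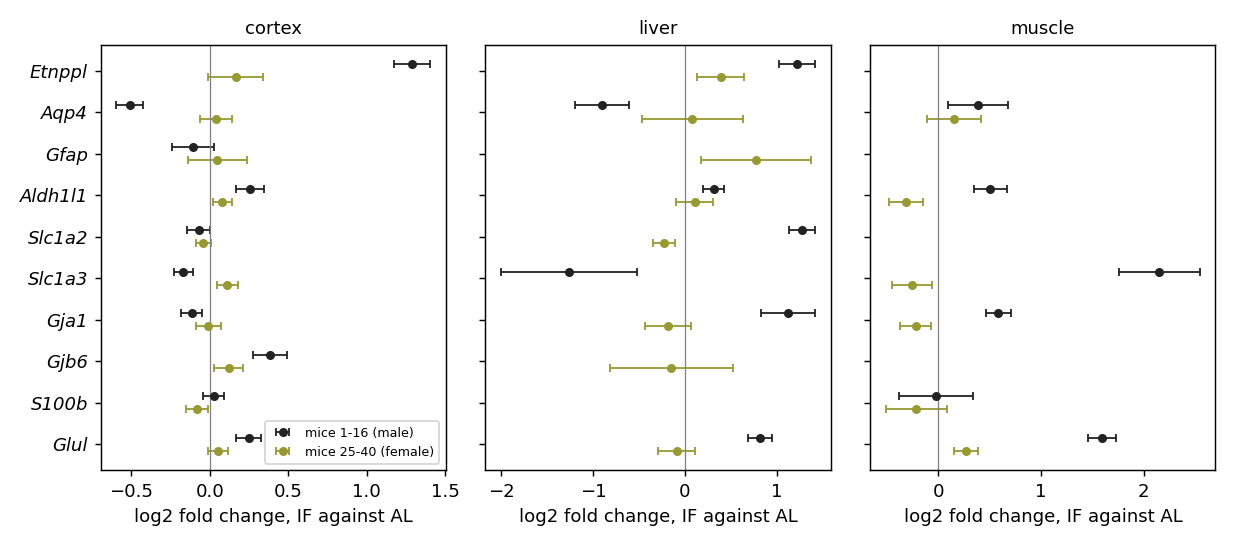
Log2 fold change of IF against AL (horizontal axis) with its SE for each gene tested in cortex, liver and muscle, in mice 1 to 16 (male, black) and mice 25 to 40 (female, olive); a gene with too few counts in a comparison has no point. The male values of Etnppl lie at 1.29 in cortex and 1.22 in liver, and those of Glul at 0.25 in cortex, 0.82 in liver and 1.60 in muscle.

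The difference between the mouse sets was fitted for each tissue as an interaction of set and diet. In cortex it was -1.12 ± 0.22 on the log2 scale for Etnppl and 0.55 ± 0.14 for Aqp4, given as a description because cortex values may have entered the choice of genes. These were the 2 of 10 called, beside 2.03% of all genes. With the library labelled AL mouse 1 kept, Etnppl alone was called, beside 81 of all 19410 genes, and Aqp4 stood at 0.50 ± 0.14. Of the oligodendrocyte markers, 5 of 8 had a lower diet difference in females than in males, and the median of the 8 was -0.68, beside 0.00 for all genes.

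Under AL, Etnppl in cortex had a log2 fold change of 0.01 ± 0.16 for females against males. Aldh1l1 had a median of 69.6 CPM in females and 56.6 CPM in males (log2 fold change 0.28 ± 0.08), and its ranges of 62.1 to 74.3 and 48.5 to 67.5 CPM overlapped. It was the 1 of 10 called, beside 12.6% of all genes, and nothing is read from that count. With the library labelled AL mouse 1 kept, 0 were called by edgeR (2 at an unadjusted p under 0.05), beside 1326 of all 19410 genes. The log2 fold change of Aldh1l1 was then 0.22 ± 0.08. Gfap had 0.41 ± 0.18 and was not called.

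Oligodendrocyte markers also differed between the AL groups in cortex. Of 8, 4 were higher in females, with a median log2 fold change of 0.41 over the list, beside 12.6% called and a median of 0.01 for all genes. Their sum ran from 6148 to 10283 CPM (median 7564) in AL females and from 4744 to 7311 CPM (median 5771) in AL males. The part of these cells in the sex and interaction values of the 10 genes was not tested.

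Within groups, cortex libraries with more Etnppl also had more Gjb6. The measure was the correlation of log2 CPM after each of the 4 groups was centred on its own mean, over 31 libraries, given as a description. For Gjb6, r was 0.70 and rho 0.72. Without the 2 libraries farthest from the median of Etnppl, IF mice 34 and 38, r was 0.66. Within the males alone r was 0.77 and within the females alone 0.69.

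Aldh1l1 had an r of 0.53 with Etnppl and a rho of 0.49, and r was 0.39 without the 2 farthest libraries. Glul had an r of 0.47 and a rho of 0.54, and r was 0.50 without the 2 libraries. Within males alone r was 0.40 for Aldh1l1 and 0.57 for Glul, and within females alone 0.75 and 0.43.

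Slc1a2 and Slc1a3 had r of 0.39 and 0.45 and rho of 0.42 and 0.36, and without the 2 libraries r was 0.32 and 0.31. Within males alone their r was 0.33 and 0.61, and within females alone 0.53 and 0.37. Gfap had an r of 0.42 and a rho of 0.42. Its r was 0.78 within males alone, 0.25 within females alone and 0.22 without the 2 libraries. Gja1 and Aqp4 had r of 0.36 and 0.23, with rho of 0.29 and 0.25. Within males alone their r was 0.44 and 0.50, and within females alone 0.32 and 0.11. S100b had an r of -0.15 and a rho of -0.14, with r of -0.37 within males alone and -0.01 within females alone. All libraries share the scaling to their own totals. With totals scaled by TMM factors r was 0.67 for Gjb6, 0.49 for Aldh1l1 and 0.41 for Glul.

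**Figure D4:**
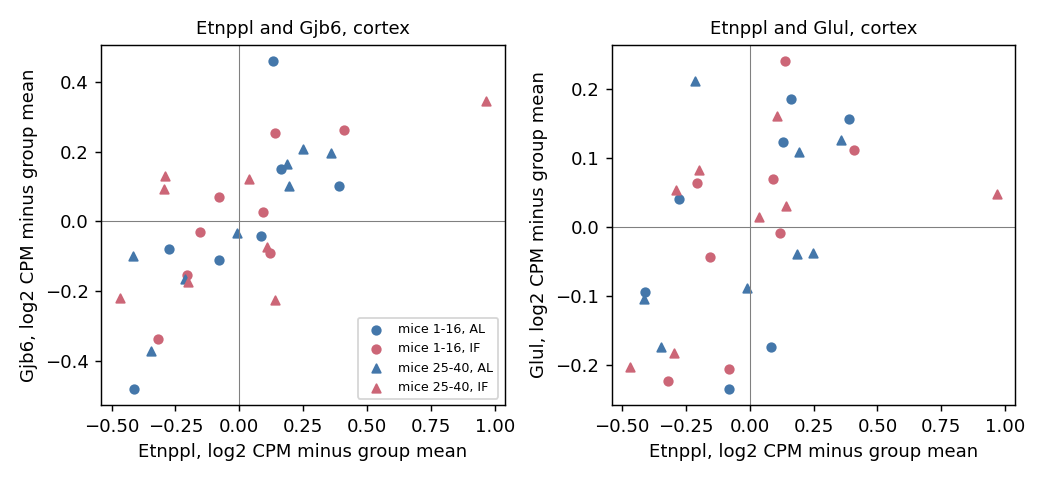
Etnppl (horizontal axes) against Gjb6 and Glul (vertical axes) in 31 cortex libraries, each as log2 of CPM + 0.1 minus the mean of its own group; circles are mice 1 to 16, triangles mice 25 to 40, AL blue and IF red. Points rise together for Gjb6 (r 0.70) and more loosely for Glul (r 0.47), and the point far to the right is IF mouse 34.

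By the same measure, the 10 genes most like Etnppl among 15403 with a mean of at least 1 CPM in cortex were Slco4a1 (r 0.71), Slc35f6 (0.70), Marveld1 (0.70), Gjb6 (0.70), Itih3 (0.67), Ddo (0.67), Arhgap31 (0.66), Ccdc88a (0.65), Hspa12b (0.63) and Emp1 (0.63). These r are a description over 31 libraries with no p. Gjb6 was thus at place 4, Aldh1l1 at place 76 and Glul at place 256, while S100b was at place 12025. Of the 10, Gjb6 was called higher and Ccdc88a lower (log2 fold change -0.24 ± 0.06) in male cortex under IF, and none in female cortex. Among all genes tested 7.21% were called in male cortex and 0.0109% in female cortex.

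In male liver Etnppl was higher under IF. It ran from 30.9 to 92.1 CPM (median 65.6) in 8 AL libraries and from 112 to 213 CPM (median 167) in 8 IF libraries, with no overlap. The log2 fold change was 1.22 ± 0.19, a description as in cortex. In liver 7 of the 10 genes had enough counts to be tested, Gfap, Gjb6 and S100b having too few. Of these 7, 6 were called, Etnppl among them, beside 44.6% of all genes.

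Slc1a2, which in liver brings glutamate into hepatocytes, rose from a range of 62.5 to 135 CPM under AL to 222 to 298 CPM under IF (log2 fold change 1.28 ± 0.14, adjusted p = 1.06e-07 by edgeR). Glul rose from 503 to 929 CPM under AL to 1099 to 1455 CPM under IF (0.82 ± 0.13, adjusted p = 1.35e-05). For both genes every IF library lay above every AL library in CPM. With totals scaled by TMM factors, mean Glul was 703 CPM under AL and 1210 CPM under IF, against 656 and 1233 CPM unscaled. Mean Slc1a2 was 106 and 251 CPM, against 98.8 and 256 CPM. The rise of Gja1 (1.12 ± 0.29, adjusted p = 0.00311) was at medians of 1.70 and 4.31 CPM.

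Aldh1l1 rose from a median of 756 to 950 CPM in male liver (log2 fold change 0.31 ± 0.11, adjusted p = 0.0275 by edgeR), with overlapping groups, and was not called under 4 of the alternatives, among them the fit without AL mouse 2 and IF mouse 10 (0.24 ± 0.11). Aqp4 fell from a median of 2.92 to 1.35 CPM (-0.90 ± 0.29, adjusted p = 0.0149), and was not called in 1 fit over the 4 liver groups (-0.93). Slc1a3, at most 0.491 CPM in any of these libraries, did not pass (adjusted p = 0.17).

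Hepatocyte and blood markers were read in the same libraries, where 44.6% of all genes were called with a median of 0.06. Of 8 markers of pericentral hepatocytes, the cells that also hold Glul and Slc1a2, 2 rose and 3 fell, with a median of -0.17. Cyp2e1, the most abundant, rose by 1.55 ± 0.17 on the log2 scale (adjusted p = 1.28e-07 by edgeR), and Lgr5 fell (-1.82 ± 0.21, adjusted p = 1.68e-07). Their sum ran from 2630 to 5479 CPM under AL and from 7379 to 11692 CPM under IF, with no marker at 0. Of 6 periportal markers, 1 rose, Pck1 of gluconeogenesis (1.44 ± 0.20, adjusted p = 3.35e-06), and 3 fell, with a median of -0.31.

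Of 5 erythrocyte markers in male liver 3 rose, with a median of 1.70, and their sum ran from 362 to 956 CPM under AL and from 667 to 6879 CPM under IF, with Hba-a1 the most abundant. Hbb-bs rose by 3.17 ± 0.52 on the log2 scale (adjusted p = 0.000167 by edgeR). Of 6 hepatocyte markers, with a median of -0.29, 2 fell, Apoc3 (-0.54 ± 0.12, adjusted p = 0.00109) and Apoa1 (-0.48 ± 0.13, adjusted p = 0.005). Both counts stand beside 44.6% called and a median of 0.06 for all genes.

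Vessel and fibroblast markers were also read in male liver. Of 7 endothelial markers 4 rose by edgeR (3 called by DESeq2), with a median log2 fold change of 0.40 over the list, beside 44.6% called and a median of 0.06 for all genes, and none was at 0. Their sum ran from 75.9 to 110 CPM (median 87.8) under AL and from 118 to 222 CPM (median 135) under IF. Kdr, a receptor for vascular growth factor, rose by 1.07 ± 0.12 on the log2 scale (adjusted p = 1.59e-07 by edgeR). Robo4, the most abundant of the list, rose by 0.72 ± 0.16, given with no p as in cortex. Of 6 meningeal and fibroblast markers 3 rose, with a median of 0.41. Their sum ran from 265 to 427 CPM under AL and from 325 to 445 CPM under IF. Slc6a13 alone had a mean of 271 CPM under AL and 259 CPM under IF. The sum thus mostly follows that 1 gene and is not read as a fibroblast level. Lum rose by 1.44 ± 0.26 (adjusted p = 8.31e-05) and Dcn by 0.74 ± 0.14 (adjusted p = 0.000118). The part of any of these cells in the liver values of the 10 genes was not tested.

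Around phosphoethanolamine, 12 of 13 genes were tested in male liver, with 5 higher, 3 lower and a median log2 fold change of 0.05, beside 44.6% called and a median of 0.06 for all genes. Pisd, which makes phosphatidylethanolamine from phosphatidylserine, rose from a median of 6.77 to 12.9 CPM (log2 fold change 0.78 ± 0.16, adjusted p = 0.000274 by edgeR). Selenoi, which makes the same lipid from CDP-ethanolamine, fell from 38.6 to 23.2 CPM (-0.98 ± 0.13, adjusted p = 1.12e-06).

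The other lists in male liver went both ways. Of 8 tested genes of glutamate and glutamine handling 4 rose and 2 fell, with Got1, an aspartate aminotransferase, up (log2 fold change 1.16 ± 0.26, adjusted p = 0.0014 by edgeR) and the transporter Slc1a4 down (-1.57 ± 0.27, adjusted p = 5.18e-05). Of 21 tested other astrocyte genes 10 rose and 5 fell, with a median of 0.48, beside 44.6% called and a median of 0.06 for all genes.

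In female liver Etnppl ran from 14.7 to 47.3 CPM (median 35.7) under AL and from 24.5 to 92.0 CPM (median 37.4) under IF, where mouse 34 was again highest and the next was at 49.6 CPM. The log2 fold change was 0.39 ± 0.26. Of the 8 genes tested 0 were called by edgeR or DESeq2 and 0 had an unadjusted p under 0.05, beside 0% called of all genes (0 of 15938, with 919 at an unadjusted p under 0.05 and 4 called by DESeq2).

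The liver interaction of set and diet was -1.46 ± 0.19 for Slc1a2 (adjusted p = 3.02e-07 by edgeR), -1.27 ± 0.39 for Gja1 (adjusted p = 0.0157) and -0.87 ± 0.25 for Glul (adjusted p = 0.00892), each a lower value of IF against AL in females than in males. These were 3 of 9 tested, beside 23.7% of all genes. For Etnppl it was -0.80 ± 0.34, given as a description.

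Markers of other cells were read in the same liver interaction. Of 5 erythrocyte markers 2 were lower (median -1.60), of 7 endothelial markers 2 were lower (median -0.53) and of 6 hepatocyte markers 2 were higher (median 0.55), beside 23.7% called and a median of -0.04 for all genes. Of 8 pericentral markers 1 was higher and 2 were lower (median -0.19). The pericentral sum had medians of 4035 CPM under AL and 10161 CPM under IF in males, and of 6445 and 5171 CPM in females. In females the erythrocyte sum ran from 115 to 1113 CPM under AL and from 261 to 1031 CPM under IF, and the endothelial sum from 74.2 to 110 CPM and from 37.1 to 128 CPM. The part of these cells in the interaction of the 10 genes was not tested.

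Under AL, liver Etnppl had medians of 35.7 CPM in females and 65.6 CPM in males, with overlapping ranges (log2 fold change -1.04 ± 0.24, a description). Aqp4 was lower in females (-2.46 ± 0.43, adjusted p = 3.99e-05 by edgeR), and Slc1a2 was higher (0.60 ± 0.13, adjusted p = 0.000898), every female library, from 143 CPM, lying above every AL male one. With Etnppl, 3 of 9 tested were called, beside 20.0% of all genes. Of 8 microglia markers, which liver macrophages share, 4 were higher in females, with a median of 0.96, beside 20.0% called and a median of 0.04 for all genes. Their sum ran from 111 to 612 CPM in AL females and from 66.2 to 105 CPM in AL males, and their part in the values of the 10 genes was not tested.

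In muscle Etnppl was at or near 0, with at most 12 counts in a library, and was not tested. Glul, which also makes glutamine in muscle, rose in males from a range of 98.6 to 142 CPM (median 117) under AL to 270 to 576 CPM (median 378) under IF, without overlap. The log2 fold change was 1.60 ± 0.13 (adjusted p = 4.13e-07 by edgeR). Of the 6 genes tested 4 were called, all higher, beside 23.0% of all genes.

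Slc1a3 rose in male muscle from a range of 0.355 to 1.51 CPM (median 0.957) under AL to 1.13 to 10.4 CPM (median 4.37) under IF (log2 fold change 2.15 ± 0.39, adjusted p = 0.000993 by edgeR). The highest, IF mouse 12 at 10.4 CPM, was well above the next at 5.53 CPM. Gja1 rose from a median of 6.81 to 10.5 CPM (0.59 ± 0.12, adjusted p = 0.00147) and Aldh1l1 from 6.24 to 9.42 CPM (0.51 ± 0.16, adjusted p = 0.0282). Aqp4, the water channel of fast fibres, ran from 7.04 to 16.4 CPM under AL and from 3.59 to 20.9 CPM under IF and did not pass (0.39 ± 0.29, adjusted p = 0.372).

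Genes of fat cells were read in the same muscle libraries, where 23.0% of all genes were called. Pck1 (log2 fold change 4.45 ± 0.78, adjusted p = 0.000995 by edgeR), Cyp2e1 (4.02 ± 0.50, adjusted p = 7.05e-05) and Slc7a10, an amino acid transporter of astrocytes and fat cells (2.33 ± 0.56, adjusted p = 0.00807), all rose. They were picked from the lists of periportal, pericentral and other astrocyte genes. Of the genes tested in these lists, 2 of 3, 1 of 5 and 3 of 25 rose, and 1 of the 25 fell. The list medians were 1.80, 0.04 and 0.11, beside 0.01 for all genes. In a list of 7 adipocyte markers added after these values were seen, 6 were called higher and Lep was not. Their sum ran from 166 to 749 CPM (median 320) under AL and from 418 to 3839 CPM (median 1558) under IF, with Fabp4 the most abundant and none at 0. The part of fat cells in the rise of Slc1a3 and the others was not tested.

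Of 6 muscle fibre markers 2 were lower, Mylpf (log2 fold change -0.29 ± 0.08, adjusted p = 0.0128 by edgeR) and Ckm (-0.19 ± 0.06, adjusted p = 0.0382). Of 7 tested endfoot genes, which in muscle serve the fibre membrane, 3 were lower, among them Dag1, dystroglycan (-0.47 ± 0.05, adjusted p = 1.91e-06), and Lama2, a laminin chain (-0.52 ± 0.11, adjusted p = 0.00151). The median of the 7 was 0.06, beside 23.0% called and a median of 0.01 for all genes.

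In female muscle Glul ran from 166 to 280 CPM under AL and from 193 to 303 CPM under IF (log2 fold change 0.27 ± 0.12, adjusted p = 0.438 by edgeR). Of 6 genes tested 0 were called by edgeR or DESeq2, with 1 at an unadjusted p under 0.05, beside 0.00653% of all genes (1 of 15308 by edgeR, 82 by DESeq2). The interaction was -1.31 ± 0.19 for Glul (adjusted p = 1.8e-05), -2.39 ± 0.43 for Slc1a3 (adjusted p = 0.000293), -0.79 ± 0.20 for Gja1 (adjusted p = 0.00672) and -0.80 ± 0.25 for Aldh1l1 (adjusted p = 0.0241). These were 4 of 7 tested, beside 14.2% of all genes, and each was a lower value of IF against AL in females than in males.

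In the same muscle interaction 4 of 7 endothelial markers were lower (median -0.47), as were 2 of 4 tested periportal markers (median -1.30), and 2 of 6 fibre markers were higher (median 0.32), beside 14.2% called and a median of -0.01 for all genes. The periportal sum was led by Pck1, which fat cells also make. Of the 7 adipocyte markers, 6 rose in males, and in females their median was -0.31, with a sum of 230 to 1154 CPM under AL and 122 to 936 CPM under IF. The part of these cells in the interaction of the 10 genes was not tested.

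Under AL, muscle levels were higher in females than in males for 5 of the 7 genes tested, beside 38.4% called of all genes. They were Glul (log2 fold change 0.64 ± 0.13, adjusted p = 0.000239 by edgeR), Slc1a3 (1.06 ± 0.31, adjusted p = 0.0069), Aqp4 (0.85 ± 0.29, adjusted p = 0.0194), Aldh1l1 (0.58 ± 0.17, adjusted p = 0.00839) and Gja1 (0.39 ± 0.14, adjusted p = 0.0268). Female AL muscle thus had 166 to 280 CPM of Glul, above all male AL libraries.

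Markers of other cells were read in the AL muscle groups as well. Of 6 fibre markers 3 were lower in females (median log2 fold change -0.20), as were 3 of 5 erythrocyte markers (median -0.87), beside 38.4% called and a median of 0.02 for all genes. Of 4 tested periportal markers 2 were higher, with a median of 1.11. The fibre sum ran from 117052 to 150238 CPM in AL females and from 130747 to 139975 CPM in AL males. The erythrocyte sum ran from 57.9 to 396 CPM and from 190 to 869 CPM, and the adipocyte sum from 230 to 1154 CPM and from 166 to 749 CPM. The part of these cells in the values of the 10 genes was not tested.

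RefSeq promoters (GRCm38.p6, 250 bases before to 50 after the start) were found for 9 of the 10 genes, Aqp4 having no entry. They were searched on both strands for AGAACA, part of the palindrome known from the glucocorticoid receptor, TTGGCA, part of that known from nuclear factor I, and CACGTG, an E-box. AGAACA was in 1 of the 9 genes, Slc1a3, against 19.0% of all 32851 promoters, TTGGCA in 2, Etnppl and S100b, against 14.1%, and CACGTG in none, against 7.15%. The 9 genes have 10 promoter windows, so these counts are of genes while the shares are of promoters. A match is a run of letters, not a bound site.

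Etnppl, which of the 10 genes had the largest diet difference in male cortex, has 2 promoter windows. It is shown because it was also higher in male liver under IF. The first 250 bases of the second window, those before its transcription start, lie at chr3:130617325-130617574 on the + strand of GRCm38.p6. They hold 1 TTGGCA, written in capitals, whose first base lies at position -57 from that start.
Etnppl: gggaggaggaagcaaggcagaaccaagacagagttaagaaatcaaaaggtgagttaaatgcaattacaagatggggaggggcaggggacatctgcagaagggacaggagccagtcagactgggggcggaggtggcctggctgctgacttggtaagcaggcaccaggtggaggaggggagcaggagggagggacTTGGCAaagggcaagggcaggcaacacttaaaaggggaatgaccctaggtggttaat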

How the data were processed

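Poly(A) RNA of 96 libraries was sequenced; per the labels and the study's methods the authors aligned reads with Hisat2 2.0.5 to GRCm39 and counted them per gene with featureCounts 1.5.0-p3. The deposited values are whole-number counts, with no row that names no gene. The members and lists were chosen with earlier results of these data known. From the counts, CPM was computed over each library's total. Differences were tested with edgeR 4.0.16 (TMM, filterByExpr with a minimum count of 10, robust quasi-likelihood fit, Benjamini-Hochberg over all genes tested, threshold 0.05) in R 4.3.3, each tissue and mouse set alone. Females against males under AL and the interaction came from 1 fit over the 4 groups of a tissue. The SE is the log2 fold change divided by the square root of F. Correlations used log2 of CPM + 0.1. Their permutation p were computed but are not given, since cortex values may have entered the choice of genes. The steps were tested on simulated data. Alternatives were DESeq2 1.42.0, other size factors and filters, a replicate block and left-out libraries. Named were all 10 genes, up to 4 called genes of a list with the largest change in cortex and 2 in liver or muscle, the 10 genes most like Etnppl, and sex-linked genes.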

Additional observations from a re-analysis of the deposited data

Results flagged for a closer look

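Of 85 groups of libraries in which a member had a median of at least 1 CPM, 5 had a library far from the others, where chance gives about 1 in 20. IF female mouse 34 was such a library for Etnppl in both cortex (30.7 CPM, next 17.3) and liver (92.0 CPM, next 49.6). IF male mouse 12 was one for Aqp4 in cortex (47.2 CPM, next 39.4) and for Slc1a3 in muscle (10.4 CPM, next 5.53), and AL female mouse 27 for S100b in muscle (3.71 CPM, next 2.33).

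The diet difference itself differed between the mouse sets for several members, as an interaction on the log2 scale. In cortex it was -1.12 for Etnppl and 0.55 for Aqp4, a description with no p printed because cortex values may have entered the choice of genes. In liver it was -1.46 for Slc1a2, -1.27 for Gja1 and -0.87 for Glul. In muscle it was -2.39 for Slc1a3, -1.31 for Glul, -0.80 for Aldh1l1 and -0.79 for Gja1. Sex and cohort cannot be told apart in these values.

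The cortex library labelled AL male mouse 1, left out of the comparisons of the report except where it is said to be kept, had 213 CPM of Xist, where the other male cortex libraries had at most 0.229 CPM. Its level of Etnppl was 16.8 CPM, within the other AL males.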

How the results depend on the processing

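No called difference of a member turned its direction under any alternative run. In male cortex the members called, 3 in the report, numbered 5 with 1 fit over the 4 groups, where Aldh1l1 and Glul joined, and between 2 and 5 with each library left out in turn, with 5 without AL mouse 7 or without IF mouse 9. The fit over the 4 groups called 2044 of all 19547 genes, against 1332 of 18462 in the report. Of all genes, 1906 of 18602 were called without AL mouse 7 and 1061 of 18356 without IF mouse 9. With the library labelled AL mouse 1 kept, the members called numbered 0 by edgeR for AL females against males (2 at an unadjusted p under 0.05; 1 in the report, and 1 by DESeq2 without that library) and 1 for the cortex interaction (2 in the report). Of all genes, 1326 of 19410 were then called for AL females against males, against 2472 of 19547 in the report. For the interaction they numbered 81 of 19410, against 397 of 19547. The cause was not tested.

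With the replicate block, which sets AL and IF mice of the same replicate number together, the log2 fold change of Etnppl in male cortex was 1.34 ± 0.09, and Gjb6 was not called (0.44 ± 0.11). The genes called in male cortex numbered 382 with that block, 2187 by DESeq2 and 294 with the library labelled AL mouse 1 kept, against 1332. With each library left out in turn they numbered between 638 and 2060, so the share of 7.21% of all genes moved with single libraries. Of 640 values of members not called under either setting, 21 had the other sign. The replicate block for the sex and interaction contrasts, and the fits without libraries high in choroid plexus markers, were chosen after seeing the data.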

Other observations

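Lists beside the 10 genes also held changes in male liver and muscle, where 44.6% and 23.0% of all genes were called. In liver 2 of 8 tested S100 genes rose and 2 fell, and 1 of 6 connexin genes rose and 1 fell. Of 21 tested other astrocyte genes in liver 10 rose and 5 fell. In muscle 2 of 12 tested genes around phosphoethanolamine rose and 1 fell. Nothing is read from these counts. In liver S100a10, a partner of annexin, fell from a median of 140 to 44.6 CPM (log2 fold change -1.73 ± 0.12, adjusted p = 4.33e-11 by edgeR), and S100a13 rose (0.78 ± 0.15, adjusted p = 0.000235). Mfge8, a secreted bridge to dying cells, rose from 9.13 to 28.2 CPM (1.62 ± 0.15, adjusted p = 5.54e-09), and Ppp1r3c, a subunit that targets a phosphatase to glycogen, fell (-1.70 ± 0.31, adjusted p = 0.000327). Among connexins Gja4 of vessels rose (1.47 ± 0.20, adjusted p = 1.78e-06) and Gjb1 of hepatocytes fell (-0.47 ± 0.09, adjusted p = 0.000269). In muscle Sgpl1, which releases phosphoethanolamine from sphingosine phosphate, rose from a median of 6.01 to 8.64 CPM (0.59 ± 0.12, adjusted p = 0.00131), and Phospho1, a phosphatase of phosphoethanolamine, fell from 17.5 to 11.6 CPM (-0.61 ± 0.18, adjusted p = 0.0209).

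After IF mouse 34 was seen to be high in Etnppl in cortex and liver, the relation between these tissues was computed across 31 mice, each group centred on its mean, for 5 genes. It is given as a description, since cortex values may have entered the choice of genes. For Etnppl r was 0.08 and rho -0.01. Without the 2 farthest mice r was -0.31, within males -0.47 and within females 0.34. Over the 31 mice r was -0.11 for Aldh1l1, -0.20 for Slc1a2, -0.04 for Gja1 and -0.15 for Glul.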
